A study of Homo sapiens with 15 samples.

Results

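MT-ND5 and MT-ND6 are neighbouring mitochondrial genes that are coded on opposite strands and meet end to end. They were chosen by name, as 2 of the 37 annotated mitochondrial genes, to ask whether the strand bias of DNA ends by P1 amount followed the direction in which a gene is coded or the strand of the genome. Termini were taken between positions 12337 and 14148 of chrM for MT-ND5 (ENSG00000198786, 1812 bases, 1 exon on the plus strand) and between 14149 and 14673 for MT-ND6 (ENSG00000198695, 525 bases, 1 exon on the minus strand), in hg19. Nuclei of K562, an established human chronic myeloid leukemia cell line of WT genotype, were crosslinked with formaldehyde in all 15 samples. They were then left undigested (0 U, untreated) or digested with 0.01, 0.1, 1 or 10 U of nuclease P1, with 3 biological replicates per amount. P1 preferentially cuts single-stranded nucleic acid and leaves 3′-OH ends. SSiNGLe-P1 sequences the 3′-OH ends (termini) of each strand, both those left by P1 and those already present. The authors also describe a low activity of P1 on double-stranded DNA. They saw genomic DNA degrade at 10 U and propose that amount as a possible further negative control. The model is limited to 1 cell line and to the mitochondrial DNA that stayed with isolated nuclei.

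Both genes encode membrane subunits of respiratory complex I, the enzyme that passes electrons from NADH to ubiquinone and pumps protons. The strands of mitochondrial DNA are named heavy (H) and light (L) for their unequal guanine content. MT-ND5 is transcribed from the H strand, so its mRNA has the sequence of the L strand, whereas MT-ND6 is the only protein-coding gene transcribed from the L strand. Replication in the strand-displacement model leaves the parental H strand single-stranded for a time, and the non-coding region (NCR) holds the promoters and the start of H-strand synthesis.

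The opposite orientation of the genes was visible in their sequences. The first 60 bases of each transcript (GENCODE 44 on this build) are shown with guanine in capitals, since guanine content is what names the strands.
MT-ND5: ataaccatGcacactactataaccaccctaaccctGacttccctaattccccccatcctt
MT-ND6: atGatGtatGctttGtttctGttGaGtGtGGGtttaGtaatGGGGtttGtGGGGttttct
Guanine made up 2 of the 60 bases in MT-ND5 and 21 of the 60 in MT-ND6. Over the whole genes, the H strand held 34.3% guanine in MT-ND5 and 35.6% in MT-ND6, against 10.6% and 7.05% on the L strand. The transcripts therefore differed in guanine content (10.6% against 35.6%), while the H strand had nearly the same content in both genes.

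The samples held between 29622 and 692989 mitochondrial termini, and between 20536 and 229564 outside the NCR, which was counted as the positions before 579 and after 16024. Of these, MT-ND5 held between 2931 and 38512 termini per sample and MT-ND6 between 710 and 9405. Plus-strand termini of the files were read as those of the H strand. This is opposite to the gene annotation, where the plus strand, on which MT-ND5 is coded, has the L-strand sequence. In the untreated samples, plus-strand position 16107 in the NCR alone held between 31.6% and 33.4% of all mitochondrial termini, where the H-strand 7S DNA is known to end. The ratio of H-strand to L-strand termini (H/L ratio) was computed per sample in each gene. In the sample with the fewest MT-ND6 termini, replicate 3 of 10 U, the ratio was 1.35 with a 95% exact Clopper-Pearson interval of 1.16 to 1.57, which covers counting error only.

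The H/L ratio rose with P1 in both genes, and in the same direction. In MT-ND5 it was 1.26, 1.08 and 1.35 in the untreated replicates (1.23 ± 0.136, SD, n = 3). It was 1.38, 1.40 and 1.53 at 0.01 U, and 2.96, 3.27 and 3.83 at 0.1 U. At 1 U it reached 4.45, 6.74 and 9.81, a mean of 7.0 ± 2.69 (SD, n = 3). Each of these amounts lay wholly above the untreated samples and above the amount before it. At 10 U the ratio was 2.46, 1.96 and 2.77, below all samples of 0.1 and 1 U and above all untreated samples. As the geometric mean within replicates, the MT-ND5 ratio was 5.44 times the untreated one at 1 U, with 3.53 to 7.29 in single replicates.

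In MT-ND6, which is coded the other way, the H/L ratio was 0.946, 0.817 and 0.879 in the untreated samples (0.881 ± 0.0646, SD, n = 3). At 0.01 U it was 0.953, 0.938 and 1.05, which overlapped with the untreated values. At 0.1 U it was 2.08, 2.14 and 2.40, and at 1 U it was 3.42, 4.66 and 8.0 (5.36 ± 2.37, SD, n = 3). Both amounts lay wholly above the untreated samples, and 1 U lay wholly above 0.1 U. At 10 U the ratio was 1.21, 1.04 and 1.35, which was above the untreated samples but overlapped with 0.01 U. The ratio at 1 U was 5.72 times the untreated one, with 3.62 to 9.10 in single replicates.

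**Figure D1:**
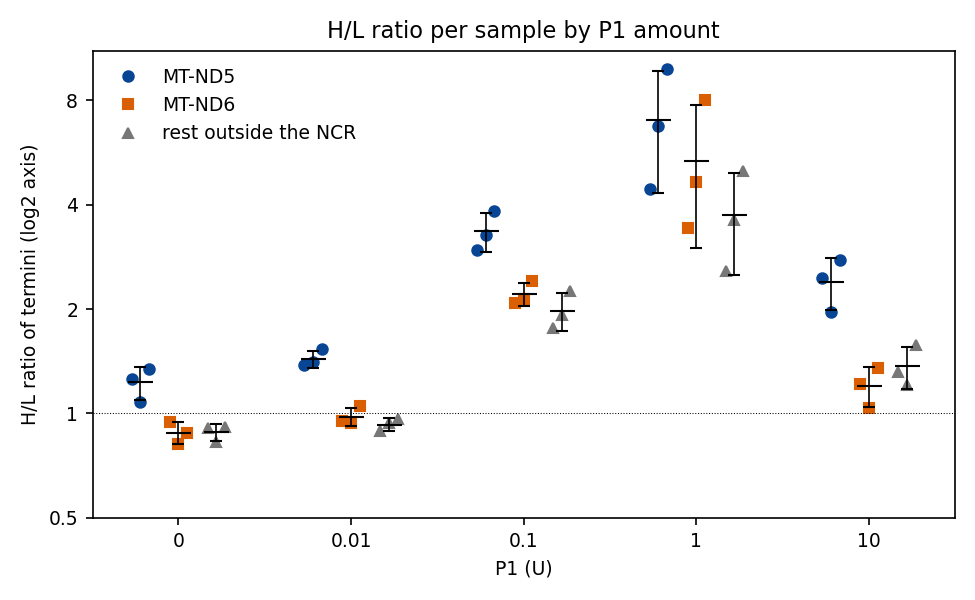
H/L ratio of termini (log2 axis) by P1 amount in U for MT-ND5, MT-ND6 and the rest of the mitochondrial genome outside the NCR. Points are samples, and horizontal lines with bars are the mean and SD of 3 replicates. All series peak at 1 U, with means of 7.0 in MT-ND5, 5.36 in MT-ND6 and 3.73 in the rest, and fall at 10 U.

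The spread of the ratio over the 5 amounts passed an exact permutation test within replicate numbers in both genes. Its p was 6.94e-05 in each, the smallest that 14400 arrangements can give, or 0.000174 after Benjamini-Hochberg adjustment over 10 results. At 0.1 and 1 U together the ratio was 3.85 times the untreated one in MT-ND5 and 3.79 times in MT-ND6, higher in 6 of 6 samples of each gene. The two-sided exact permutation test of that difference gave p = 0.037 in both, the smallest that 27 arrangements can give, and 0.0463 after adjustment. Over unique sites, where each position counts once, that p was 0.0741 in MT-ND6 in the same exact test and no longer passed. A single amount of 3 samples against 3 untreated ones was not tested, since an exact two-sided permutation p cannot go below 0.1 there. From 0.1 to 1 U the ratio grew 1.99 times in MT-ND5 and 2.28 times in MT-ND6, in 3 of 3 replicates each. At 10 U it was 0.357 and 0.237 times that at 1 U, lower in 3 of 3 replicates.

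Written by coding direction, the genes went opposite ways. The ratio of termini on the template strand to those on the non-template strand rose from 1.23 ± 0.136 in untreated samples to 7.0 ± 2.69 at 1 U in MT-ND5. In MT-ND6 the same ratio fell from 1.14 ± 0.0836 to 0.211 ± 0.0837, which is 0.175 times the untreated value (SD, n = 3 each). The move was thus toward the template strand of MT-ND5 and toward the non-template strand of MT-ND6, and toward the H strand in both.

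Both strands changed as shares of the termini outside the NCR. The H-strand termini of MT-ND5 rose from 7.65% ± 0.665 in untreated samples to 12.2% at 0.1 U and 15.5% ± 1.75 at 1 U, and those of MT-ND6 rose from 1.66% ± 0.0955 to 2.59% and 3.72% ± 0.540 (SD, n = 3). The L-strand termini of MT-ND5 fell from 6.23% ± 0.193 to 3.66% and 2.39% ± 0.672. Those of MT-ND6 fell from 1.89% ± 0.217 to 1.18% and 0.754% ± 0.209. At 1 U the H-strand share was 2.03 times the untreated one in MT-ND5 and 2.23 times in MT-ND6, and the L-strand share was 0.373 and 0.389 times. Over the amounts, exact permutation p was between 6.94e-05 and 0.000278 for these 4 shares, with adjusted values up to 0.000434. Shares of a fixed total are bound together, so a lower L-strand share does not count fewer L-strand ends in the cell. Taken over all mitochondrial termini with the NCR included, the H-strand shares at 1 U were 3.83 and 4.20 times the untreated ones, and the L-strand shares 0.704 and 0.734 times. Over the amounts all 4 passed, with an exact permutation p of at most 0.00625 before adjustment. At 0.1 and 1 U together, the exact permutation test gave p = 0.0741 for both H-strand shares. It gave 0.037 for the L-strand share of MT-ND5 and 0.111 for that of MT-ND6.

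**Figure D2:**
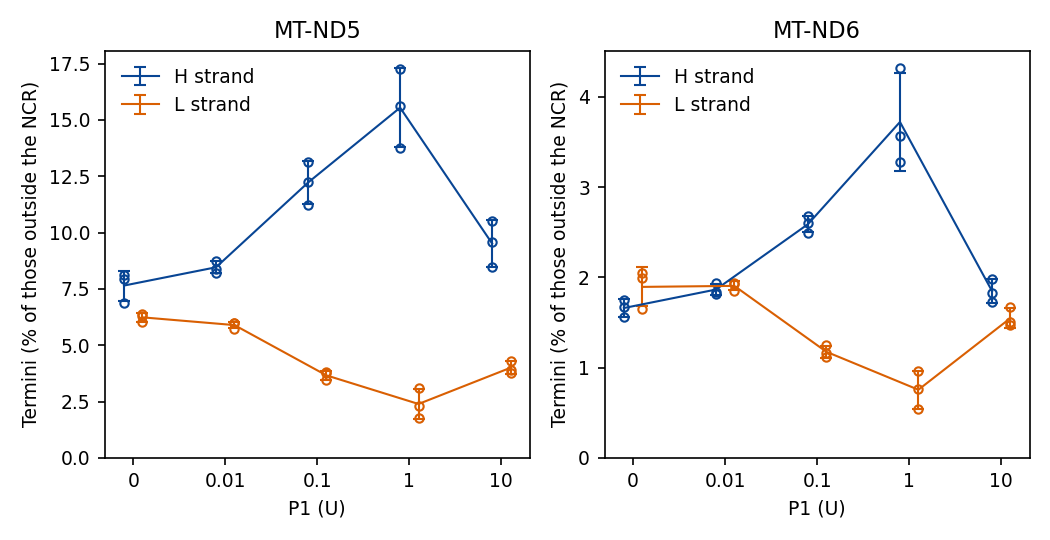
Termini of each strand in MT-ND5 (left) and MT-ND6 (right) as percent of all termini outside the NCR, by P1 amount in U. Open circles are samples, lines join the means and bars are the SD of 3 replicates. The H-strand share rises to 15.5% and 3.72% at 1 U while the L-strand share falls to 2.39% and 0.754%.

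The H strand also held termini at more positions. In the untreated samples 58.1% of the MT-ND5 positions and 58.2% of the MT-ND6 positions held an H-strand terminus, and at 1 U 90.9% and 88.5% did. On the L strand the share of positions moved less, from 57.7% to 53.7% in MT-ND5 and from 54.6% to 50.3% in MT-ND6. Counting each position once, the H/L ratio went from 1.00 to 1.72 in MT-ND5 and from 1.07 to 1.80 in MT-ND6. The number of occupied positions depends on depth, which was highest in these genes at 1 U and lowest at 10 U.

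The rise was spread along both genes. In 100-base windows laid out from the junction, all 18 windows of MT-ND5 and all 5 of MT-ND6 had 3 samples of 1 U above all 3 untreated samples, and the ratio rose at least 2-fold in each. The factor at 1 U ran from 2.89 to 10.2 in MT-ND5, with a median of 6.54, and from 4.43 to 8.0 in MT-ND6, with a median of 5.43. Most of the genome did likewise. In a grid of 154 windows over all positions outside the NCR, 93.5% were higher at 1 U in this sense and 0% lower. That grid held 17 of 17 windows higher in MT-ND5 and 4 of 4 in MT-ND6. At 0.01 U the corresponding counts were 6 of 17 and 0 of 4, against 15.6% of all windows. At 0.1 U they were 17 of 17 and 4 of 4 against 86.4%, and at 10 U 10 of 17 and 3 of 4 against 54.5%. No window of either gene was lower at any amount, where 0.649% of all windows were lower at 0.01 U and 4.55% at 10 U.

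**Figure D3:**
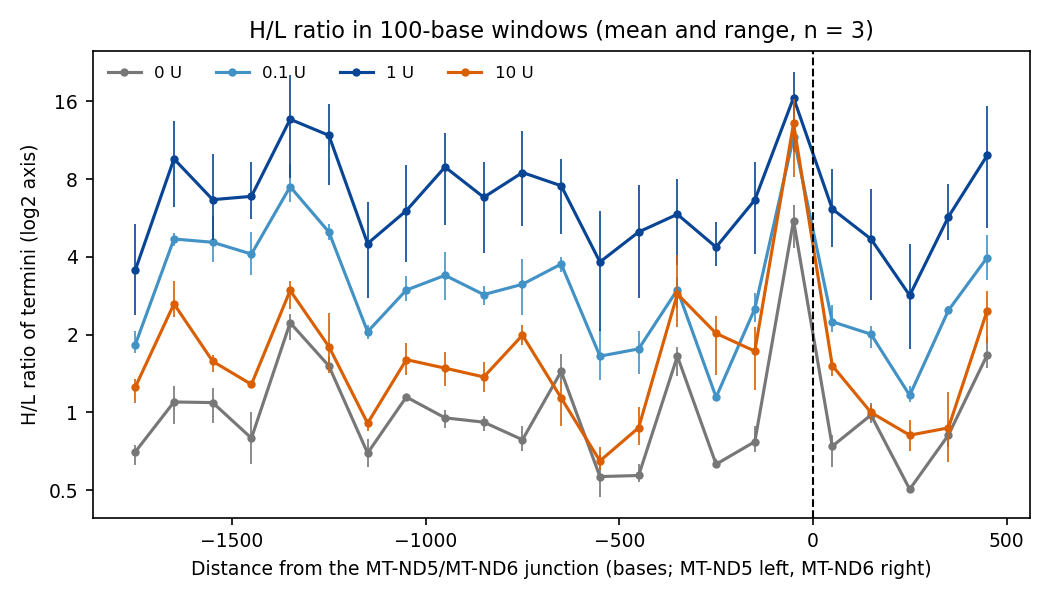
H/L ratio (log2 axis) in 100-base windows by distance in bases from the MT-ND5/MT-ND6 junction, which is the dashed line. Points are the mean and bars the range of 3 replicates at 0, 0.1, 1 and 10 U. The ratio at 1 U lies above the untreated one in all 23 windows on both sides of the junction, and the last window of MT-ND5 is high at each amount shown.

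The last window of MT-ND5 stood out before any P1 was added, with an untreated H/L ratio of 5.52 against a median of 0.934 over the windows of the gene. A run of 3 neighbouring H-strand positions, 14116, 14117 and 14118, lay 30 to 32 bases before the end of the gene and held 24.9%, 19.4% and 25.7% of its H-strand termini in the untreated replicates (23.3% ± 3.42, SD, n = 3). Their share was 16.1% ± 0.127 at 0.1 U. At 1 U it was 8.35%, 12.4% and 8.67%, below all untreated samples. At 10 U it was 36.3%, 33.0% and 40.8%, above all untreated samples. On the L strand the same positions held 1.10% of the untreated termini of the gene.

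Set against all termini outside the NCR, the positions held nearly as many at 1 U as without P1. They had 180 ± 40.4 of every 10000 termini in untreated samples and 153 ± 39.4 at 1 U, ranges that overlapped (SD, n = 3). At 10 U they held 351 ± 74.5, or 1.96 times the untreated value. The last 60 bases of the MT-ND5 transcript are shown with the 20-base stretch that holds the most thymine in capitals.
MT-ND5 end: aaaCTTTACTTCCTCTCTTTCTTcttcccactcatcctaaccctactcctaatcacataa
This stretch holds 12 thymines of 20 bases and ends 37 bases before the end of the gene, just ahead of the positions above. Stretches of 20 bases with over 40% thymine made up 4.18% of all in MT-ND5 and 1.19% in MT-ND6, read on the L-strand sequence. The methods describe the removal of termini next to T-rich sequence for the nuclear genome, and name no such step for the mitochondrial one. The part of this stretch in the termini beside it was not tested.

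**Figure D4:**
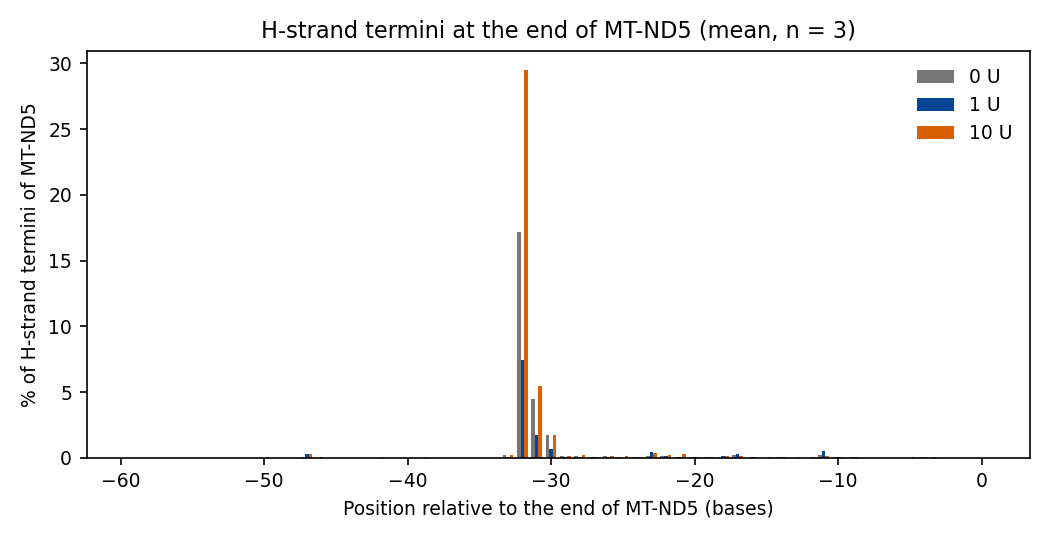
Percent of the H-strand termini of MT-ND5 at each of its last 60 positions, as the mean of 3 replicates at 0, 1 and 10 U. The position 32 bases before the end holds 17.2% in untreated samples and 29.5% at 10 U.

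Without these 3 positions, an alternative added after the data were seen, the H/L ratio of MT-ND5 was 0.939 ± 0.0654 in untreated samples and 6.31 ± 2.47 at 1 U, a factor of 6.40. At 10 U it was 1.51 ± 0.173, or 1.60 times the untreated one. The 3 positions were picked for the most untreated H-strand termini of MT-ND5, so leaving them out lowers its untreated ratio by construction. No group of positions carried a like share in MT-ND6. Its leading untreated H-strand positions, 14343, 14623 and 14591, held 3.12%, 3.09% and 2.70% of its H-strand termini, and 0.901%, 0.888% and 1.15% at 1 U. The positions that led at 1 U, 14310, 14608 and 14329, held 1.95%, 1.89% and 1.67%, from 0.368%, 0.263% and 0.206% in untreated samples. These untreated values rest on 2 to 9 termini per position and sample. Picking positions by their share in one group also favours a lower share in the other. On the L strand the leading untreated positions of MT-ND6, 14393, 14429 and 14392, held 3.79%, 3.44% and 2.63% of its L-strand termini and 2.68%, 3.51% and 1.57% at 1 U. Those of MT-ND5, 13940, 13695 and 13941, held 1.11%, 1.01% and 1.00%, and 1.14%, 0.629% and 1.16% at 1 U.

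Fewer of the leading positions were shared between untreated and 1 U samples on the H strand than on the L strand. Of the 20 positions with most untreated termini, 6 of MT-ND5 and 5 of MT-ND6 were still among the top 20 at 1 U on the H strand, against 18 and 15 on the L strand. The contrast varied with the amount. At 0.1 U the counts were 13 and 15 on the H strand against 18 and 17 on the L strand. At 10 U they were 5 and 4 against 5 and 9, so MT-ND5 showed no strand difference there. Across the 1812 or 525 positions, which are not independent replicates, untreated and 1 U samples correlated with Pearson's r from 0.501 to 0.694 on the H strand of MT-ND6 and from 0.806 to 0.928 on its L strand. On the H strand of MT-ND5 r was 0.907 to 0.966 over all positions, above most values of its L strand (0.799 to 0.920), and 0.577 to 0.723 without its 3 leading positions. Within the 1 U replicates, r was 0.955 to 0.969 on the H strand of MT-ND6 and 0.939 to 0.965 on that of MT-ND5 without these positions. Depth differed between these samples, and no test was made of these patterns.

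Counted in termini, the genes differed in the level of the ratio. The H/L ratio of MT-ND5 was above that of MT-ND6 in 15 of 15 samples, and the quotient of the ratios went from 1.39 ± 0.118 in untreated samples to 1.32 ± 0.113 at 1 U and 1.99 ± 0.0875 at 10 U (SD, n = 3). At 1 U it was 0.95 times the untreated quotient, higher in 1 of 3 replicates, and over 0.1 and 1 U together it was 1.02 times, higher in 4 of 6 samples (exact permutation test, p = 0.926). The 5 amounts differed (exact permutation test, p = 0.00583, also after adjustment), with 10 U at 1.43 times the untreated quotient in 3 of 3 replicates. Without the 3 leading positions the quotient was 1.07 ± 0.0678, 1.19 ± 0.0740 and 1.26 ± 0.0385 at 0, 1 and 10 U, still above 1 in 15 of 15 samples, and the exact permutation p over the amounts was 0.0156. Over unique sites the ratio of MT-ND5 was above that of MT-ND6 in 6 of 15 samples and in 0 of 3 untreated ones, and the amounts did not pass the exact permutation test (p = 0.526).

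On either side of the junction the comparison turned on the same positions. The ratio of MT-ND6 was 0.548 ± 0.0654 times that of the adjoining 525 bases of MT-ND5 in untreated samples and 0.743 ± 0.103 times at 1 U (SD, n = 3). The quotient was 1.35 times the untreated one at 1 U and 0.496 times at 10 U (exact permutation test over the amounts, p = 0.000347, adjusted 0.000434). Without the 10 positions per gene with most untreated termini the factor at 1 U was 1.00. Without the 3 leading positions the quotient was 1.09 ± 0.0980 in untreated samples and 1.01 ± 0.0819 at 1 U, a factor of 0.928 in the other direction, with p = 0.0306 over the amounts in the same exact test.

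At 1 U both genes stood higher against the rest of the mitochondrial genome outside the NCR than without P1, when termini were counted. In the rest, the H/L ratio had a mean of 0.882 in untreated samples and 3.73 ± 1.22 at 1 U (SD, n = 3). The rest pools unlike genes. In its 13 protein-coding and rRNA genes the factor at 1 U ran from 1.29 in MT-RNR1 to 6.26 in MT-ND1, with a median of 3.78. Over all 37 mitochondrial genes, tRNA genes included, the median was 5.71, beside 5.44 in MT-ND5 and 5.72 in MT-ND6. The ratio of MT-ND5 over that of the rest went from 1.39 to 1.85 ± 0.118 at 1 U, a factor of 1.33, and that of MT-ND6 from 0.998 to 1.41 ± 0.169, a factor of 1.40. Over the amounts, exact permutation p was 0.00222 (adjusted 0.00247) for MT-ND5 and 0.000347 (adjusted 0.000434) for MT-ND6. At 0.1 and 1 U together, higher in 6 of 6 samples of each gene, the exact permutation test gave an adjusted p of 0.0463 for MT-ND5 and 0.0823 for MT-ND6, which did not pass. Over unique sites neither quotient passed over the amounts, with factors at 1 U of 1.09 (exact permutation p = 0.0504) in MT-ND5 and 1.07 (p = 0.217) in MT-ND6. Without replicate 3 that of MT-ND5 had a factor of 1.33 and did not pass (exact permutation p = 0.0667). At 10 U the quotient of MT-ND6 was 0.880 times the untreated one, lower in 3 of 3 replicates, and that of MT-ND5 was 1.26 times. Without the 3 leading positions the quotient of MT-ND5 was 1.06 in untreated samples and 1.67 at 1 U, a factor of 1.57. At 10 U it was then 1.04 times the untreated one.

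The other complex I genes, all coded as MT-ND5 is, moved the same way. Each of MT-ND1, MT-ND2, MT-ND3, MT-ND4L and MT-ND4 passed the test over the amounts with a higher ratio at 1 U (5 of 5), as did all 37 mitochondrial genes (100%). Their factors at 1 U ran from 3.71 in MT-ND4 to 6.26 in MT-ND1, with a median of 4.48, beside a median of 5.71 over all 37 genes. Among the 15 protein-coding and rRNA genes, MT-ND6 had the third and MT-ND5 the fifth largest factor, and the rRNA genes MT-RNR2 (1.55) and MT-RNR1 (1.29) the smallest. The untreated ratio ranked 1 in MT-ND5 and 8 in MT-ND6. Without the 3 leading positions MT-ND5 ranked 6 by its untreated ratio and 1 by its factor at 1 U. The other genes kept their own leading positions in that ranking, so these ranks do not compare like with like. The tRNA genes fell in a similar range by either orientation, with a median factor of 6.94 (2.30 to 10.7) in the 8 coded as MT-ND6 is and 7.57 (3.21 to 11.2) in the 14 coded as MT-ND5 is.

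**Figure D5:**
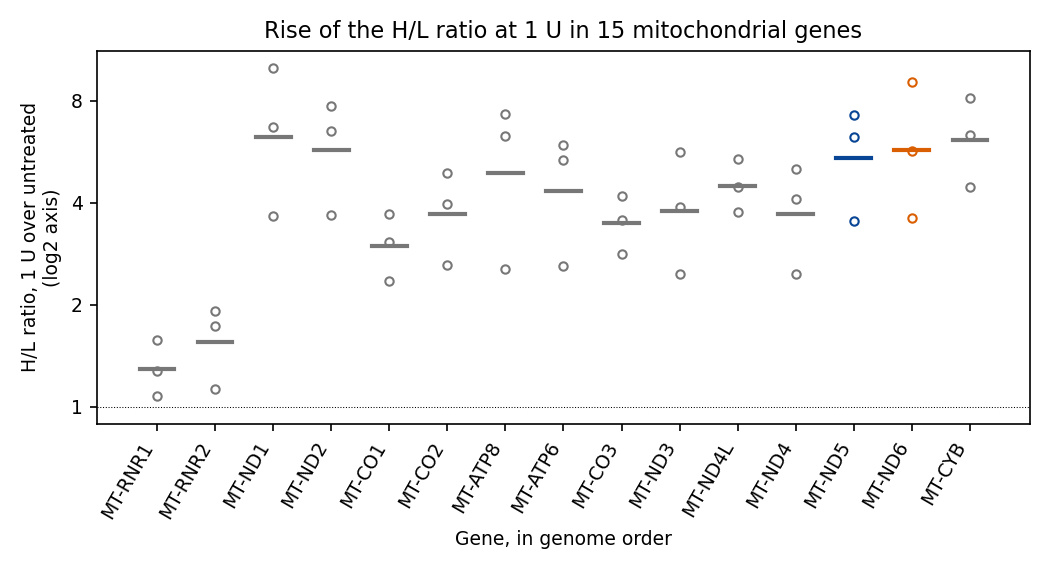
H/L ratio at 1 U over untreated (log2 axis) in the 15 protein-coding and rRNA genes, in genome order. Circles are replicates and bars are geometric means of 3. MT-ND5 (5.44) and MT-ND6 (5.72) lie among the genes with larger factors, and MT-RNR1 (1.29) and MT-RNR2 (1.55) are lowest.

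The protein-coding neighbours gave mixed contrasts, which were chosen after the values were seen. The ratio of MT-ND5 over that of MT-ND4, another membrane subunit of complex I, went from 1.39 ± 0.0741 to 2.03 ± 0.0824 at 1 U, a factor of 1.47 in 3 of 3 replicates (SD, n = 3; exact permutation test over the amounts, p = 0.00174). The ratio of MT-ND6 over that of MT-CYB, the cytochrome b subunit of complex III, which is coded as MT-ND5 is, went from 0.895 ± 0.0640 to 0.837 ± 0.0923, a factor of 0.934 and higher in 1 of 3 replicates. Its values at 10 U were 0.775 times the untreated ones, lower in 3 of 3 replicates (exact permutation test over the amounts, p = 0.016). Over the 15 samples the log2 ratio of MT-ND5 correlated most with those of MT-ND4L (Pearson's r of 0.994), MT-CO2 (0.993) and MT-ND2 (0.990). That of MT-ND6 correlated most with those of MT-ND1 (0.992), MT-ND2 (0.991) and MT-CO3 (0.987). Correlation did not order the genes by level. The root mean square log2 difference from MT-ND5 was 0.219 in MT-ND4L, 0.900 in MT-CO2 and 0.327 in MT-CYB. The ratios of MT-ND5 and MT-ND6 correlated with r = 0.975, and all these values share the libraries and their P1 amounts.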

How the data were processed

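SSiNGLe-P1 termini of 15 K562 samples were analysed, grouped by the P1 amount and replicate number in their titles. The authors kept read pairs with the expected G and T tails, aligned them with BWA (0.7.12 in the submitters' notes) to the mitochondrial genome alone, and deposited, for each position and strand, the count of termini. RPM values, which the authors scaled to the mitochondrial total of each sample, are also deposited and were not used, nor were the nuclear termini or the SICER (1.1) regions. Duplicate removal is not stated in the sources used here and no molecular identifier is named, so a count of termini need not equal a number of molecules.

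The deposited counts were summed per gene, strand and sample with Python 3.11.15, numpy 2.4.6, pandas 2.3.3 and scipy 1.17.1. Gene positions follow a reference of 16569 bases, which is a little shorter than the genome in the files. They were not converted, and a shift of a few bases is possible. Sequences were taken by gene name from GENCODE transcripts, not by position. Each factor is the geometric mean over replicates of the treated over the untreated value. Exact permutation tests on log2 values, with exchanges only between samples of one replicate number, were called at 0.05. The replicate numbers are those of the titles. The methods set treated against untreated replicates in pairs for the nuclear regions and do not name the number as what pairs them. The paired t-test of the methods was not used with 3 replicates. Both tests were run on simulated MT-ND6 counts with the same spread at all amounts and no effect of replicate number. The ratios at 1 U spread more widely in the data, so the simulation does not cover that spread.

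The genes, lists and tests were chosen with earlier results of these data known. The genes named are MT-ND5, MT-ND6, their protein-coding neighbours, the other complex I genes, the 3 genes most correlated with each and the 3 leading positions of each gene and strand in untreated and 1 U samples. MT-RNR1 and MT-RNR2 were named after their values were seen, and so were the comparisons with neighbours. The alternatives were unique sites, also at equal depth, omission of the 10 leading positions, omission of 50 bases at each gene end, gene ends moved by 1 base, positions with at least 2 termini, other totals and window sizes, no replicate block, omission of each replicate and, added later, omission of the 3 leading positions of MT-ND5.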

Additional observations from a re-analysis of the deposited data

How the results depend on the processing

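The rise of the H/L ratio at 1 U kept its direction and passed the test over the amounts under all 12 alternatives in MT-ND5 and all 12 in MT-ND6. Its size depended on what was counted. The factors were 1.70 in MT-ND5 and 1.67 in MT-ND6 over unique sites, and 3.10 and 2.80 over unique sites at equal depth. With each replicate left out in turn they were 4.69 to 6.75 and 4.54 to 7.20. Over 0.1 and 1 U together, MT-ND6 no longer passed over unique sites (exact permutation p = 0.0741). Of 129 alternative values over 11 results, 113 stayed the same, and the quotients between regions account for the other 16. For the tested results this means the same direction and the same call over the amounts. The share of windows higher at 1 U has no test and was judged by its size alone.

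The quotient of MT-ND5 over MT-ND6 at 1 U, 0.95 times the untreated one, became higher over unique sites (1.02), at equal depth (1.11), without the 10 positions per gene with most untreated termini (1.09), without the 10 positions per gene and strand with most termini (1.04), without 50 bases at each gene end (1.15) and without the 3 leading positions (1.12). The first and second of these also did not pass the exact permutation test (p = 0.526 and 0.0744). With replicates left out it was 0.884 to 1.03, higher without replicate 3 (1.03) and not past the test without replicate 1 (0.937, exact permutation p = 0.075). The quotient of MT-ND6 over the adjoining end of MT-ND5 (1.35) turned over unique sites (0.990), without 50 bases at each gene end (0.900) and without the 3 leading positions (0.928), and was 1.00 without the 10 positions per gene with most untreated termini. It no longer passed at equal depth (1.06) or without the 10 positions per gene and strand (1.05), and was 1.19 to 1.54 with replicates left out. Over the rest, the quotient of MT-ND5 no longer passed over unique sites (1.09) or without replicate 3 (1.33, within 1.29 to 1.38 over the replicates left out), and that of MT-ND6 no longer passed over unique sites (1.07). Beyond what each omission removes, the cause was not tested.

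Replicate 3 had the top H/L ratio at each amount in MT-ND5 but not at 0 U in MT-ND6. Deviations from group means in 100-base windows had a median correlation of 0.0823 within replicate numbers (11 of 30 pairs over 0.1) and -0.0422 between them (12 of 60). Without pairing no call over the amounts changed (permutation p = 1e-05 for the H/L ratios of MT-ND5, 5.44, and of MT-ND6, 5.72, the smallest that 100000 draws can give). The quotient of MT-ND6 over the rest at 0.1 and 1 U had p = 0.0357 without the pairing and 0.0741 with it, in exact permutation tests before adjustment. With 3 replicates, the exact permutation p over 0.1 and 1 U cannot go below 0.037 with the pairing, or below 0.0119 without it. Depth limits MT-ND6 most, with 710 termini in its smallest sample.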
